A study of Mus musculus with 19 samples.

Results

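Cytoplasmic ribosomal protein genes encode the proteins of the ribosome that translates nuclear messages. They were chosen by name: every row called Rpl or Rps with a number and, where present, a paralogue letter, plus Rplp0, Rplp1, Rplp2 and Rpsa, without rows named -ps and without the ribosomal S6 kinases. GENCODE M21 annotates 2 of the genes found, Rpl32l and Rpl6l, as processed pseudogenes and 1 more, Rps4l, as a processed transcript with no coding sequence, and they stayed in the set because the rule goes by name. The rule found 87 of the 40413 genes in the table, 33 of the small (40S) subunit and 54 of the large (60S) subunit, and 85 passed the filter on low counts, among 16421 genes tested. The 2 others were Rpl10l, with 0 counts in 18 libraries, and Rpl39l, with 18 counts in 5 libraries, of which 14 lay in 1 library. Both are paralogues known from the testis.

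A ribosome holds 1 copy of nearly every one of these proteins, so cells make them in step. Their messages are short and abundant, and in mammals most start with a run of pyrimidines, the terminal oligopyrimidine (TOP) tract, through which translation of the whole family is switched with nutrient supply. In the kidney the tubule, which uses much energy for transport, makes up most of the tissue.

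Polyadenylated RNA of the kidney was sequenced from 19 mice, 1 library each. BPH/2J is an inbred strain selected for high blood pressure and BPN/3J its counterpart selected for normal pressure. Cmpd17b, a small molecule agonist of formylpeptide receptors, was given by the intraperitoneal route at 50 mg/kg/day for 28 days, and the other mice received vehicle. The groups used here were 4 BPH/2J mice on Cmpd17b, 5 BPH/2J mice on vehicle, 5 BPN/3J mice on Cmpd17b and 4 BPN/3J mice on vehicle. The sample labels give neither age nor sex. Strain stands for many differences in the genome, so no single locus can be read from it.

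The 18 libraries used held between 21400111 and 40998650 counts each. In all 18 libraries used, summed markers of the proximal tubule stood at 30700 to 63400 CPM (counts scaled to a common library size). BPH/2J Cmpd17b replicate 1, going by its label, was left out under the rule of the gene set: its proximal tubule markers summed to 94.6 CPM and its 5 heart muscle markers to 48600 CPM. The 4 other BPH/2J Cmpd17b libraries held 87.7 to 102 CPM of heart muscle markers, against 2.45 to 5.89 CPM in BPH/2J vehicle, 2.21 to 6.1 CPM in BPN/3J Cmpd17b and 2.24 to 4.44 CPM in BPN/3J vehicle libraries. A further library stands apart. In 26 genes at 5 CPM or more in every BPN/3J library, and there at 4 times or more the highest BPH/2J Cmpd17b library, BPH/2J vehicle replicate 5 stood at a median of 30.0% of the BPN/3J mean, against 2.59% to 6.56% in the other 4 BPH/2J vehicle libraries. These genes were picked after the data had been seen, and Gm15772, Gm12191 and Gm10029, described below, are among them. Fold changes of named genes that rest on BPH/2J vehicle libraries are given below with and without that replicate, and group means include it.

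Summed over the 87 genes, ribosomal protein transcripts took 1.525% to 3.07% of all counts, and the groups overlapped widely. The share was 1.565%, 2.38%, 1.919% and 3.07% in the BPH/2J Cmpd17b mice and 1.652%, 2.039%, 3.069%, 2.653% and 2.822% in the BPH/2J vehicle mice. It was 1.525%, 1.957%, 2.018%, 1.898% and 2.822% in the BPN/3J Cmpd17b mice and 1.969%, 2.031%, 1.967% and 2.837% in the BPN/3J vehicle mice. In every group at least 1 mouse stood near the top of the whole range, and the BPN/3J vehicle mice other than replicate 4 lay close together. Group means were 2.23% ± 0.65 (SD, n = 4) and 2.45% ± 0.585 (SD, n = 5) for BPH/2J on Cmpd17b and on vehicle, and 2.353% on vehicle without replicate 5. They were 2.04% ± 0.475 (SD, n = 5) and 2.20% ± 0.425 (SD, n = 4) for BPN/3J on Cmpd17b and on vehicle, and 1.989% on vehicle without replicate 4. In whole kidney, fewer cells of a type and less RNA per cell cannot be told apart. No test was made over a sum of the members. As a share of all counts, the differences between group means were smaller than the SD within each group. As a share of the counts of nuclear genes the means were 2.83% ± 1.0 and 3.03% ± 0.794 (SD) in BPH/2J on Cmpd17b and on vehicle, and 2.38% ± 0.569 and 2.58% ± 0.543 (SD) in BPN/3J on Cmpd17b and on vehicle. There the distance between BPH/2J vehicle and BPN/3J Cmpd17b was larger than the SD of either BPN/3J group and smaller than the SD of either BPH/2J group.

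**Figure D1:**
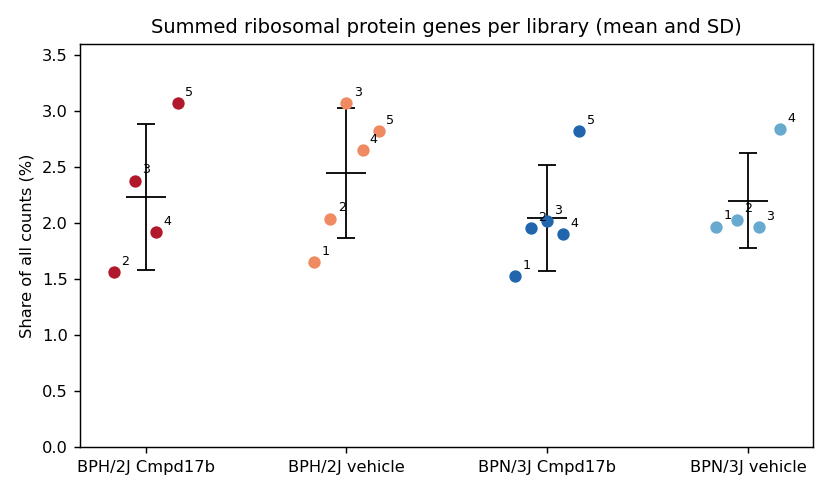
Share of all counts (%, y axis) taken by the 87 ribosomal protein genes in each of 18 libraries, by group (x axis). Points are mice with their replicate numbers, and the bars give mean and SD; the groups overlap between 1.525% and 3.07%.

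The main variation of these genes lay between mice of the same group, and it moved nearly all of them at once. Within each group, log2 CPM was set against the group mean. In BPN/3J Cmpd17b replicate 5 all 85 tested ribosomal protein genes lay above their group mean, and in BPH/2J vehicle replicate 1 none did. In BPH/2J Cmpd17b, 2, 81, 5 and 82 of 85 lay above the mean in replicates 2, 3, 4 and 5. In BPH/2J vehicle the counts were 0, 3, 82, 65 and 84 of 85 in replicates 1 to 5. In BPN/3J Cmpd17b they were 1, 22, 48, 4 and 85 of 85, and in BPN/3J vehicle 3, 2, 4 and 83 of 85. The means are of 4 or 5 mice, so 1 high mouse puts the others of its group below the mean. In BPN/3J vehicle, replicates 1 to 3 had nearly the same summed share and lay below a mean raised by replicate 4. Over all genes tested, between 48.8% and 53.3% lay above their group mean in any library. The scaling of the libraries centres the bulk of genes, so this narrow range was largely set by it. The median deviation of the members ran from -0.68 in BPH/2J vehicle replicate 1 to 0.73 in BPH/2J Cmpd17b replicate 5 on the log2 scale.

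The deviations of each gene were then scaled to the same sum of squares, so that all genes counted equally. A single component carried 93.3% of this scaled within-group variation of the 81 ribosomal protein genes at a mean of 32 CPM or more. For the 4924 genes of any kind at that level the share was 51.3%. These are descriptions, since the genes of a library share its RNA, its depth and its scaling. A ribosomal protein gene that the naming rule leaves out varied alike. Fau, made as a fusion with a ubiquitin-like protein, stood at 692 CPM in BPH/2J Cmpd17b replicate 5 and at 165 CPM in replicate 2 of that group.

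**Figure D2:**
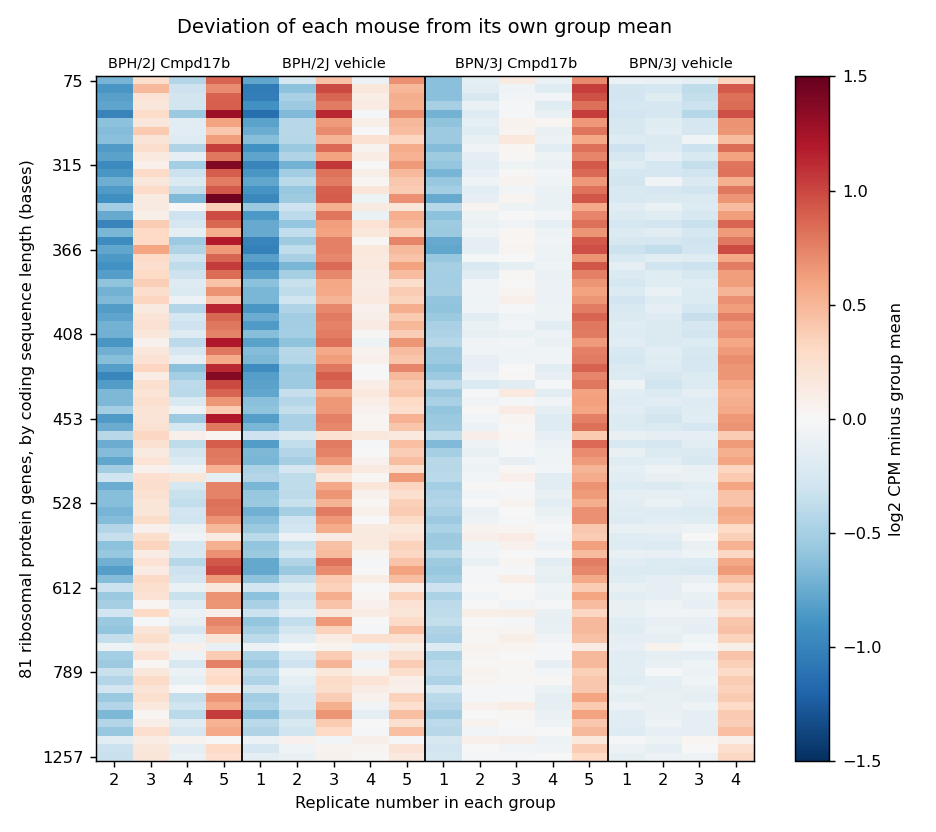
Deviation of log2 CPM from the group mean (colour, ending at ±1.5) for 81 ribosomal protein genes, from the shortest coding sequence at the top to the longest at the bottom, in 18 mice (columns, by group and replicate). Most columns are mainly of 1 colour, and in these the colour is palest at the bottom. BPN/3J Cmpd17b replicates 2 and 3 and BPH/2J vehicle replicate 4 are mixed.

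Other gene groups moved with the members to different degrees. Among the groups of nuclear genes given here, the subunits of the respiratory chain lay closest to them in 2 mice. In BPH/2J Cmpd17b replicate 5 the median deviation was 0.73 for the ribosomal protein genes and 0.55 for these subunits. In BPH/2J vehicle replicate 1 it was -0.68 and -0.67. Mitochondrial ribosomal proteins, which belong to a separate ribosome of bacterial descent, deviated by 0.30 and -0.36 in those mice. Proteasome subunits deviated by 0.18 and -0.21, and the ribosome biogenesis genes by -0.04 in both. Other genes with transcripts under 1000 bases deviated by 0.47 and -0.51. The translation factors and other genes with TOP messages deviated by only 0.09 and -0.17. Mitochondrially encoded genes deviated by 0.60 and -0.15, so they were nearer to the members than the subunits in the first mouse and far from them in the second. The share of counts from mitochondrially encoded genes was 26.6% in BPH/2J Cmpd17b replicate 5 and 12.8% to 21.7% in the 17 other libraries used. The part of any of these in the movement of the ribosomal protein genes was not tested.

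Among the members, the spread between mice was larger for shorter genes. The median within-group SD of log2 CPM was 0.506 over the 85 members, against 0.314 over all genes tested. It was 0.61 for the 28 members with a coding sequence under 400 bases, 0.513 for the 30 from 400 to under 600 bases and 0.348 for the 24 with 600 bases or more. Across 81 members the SD and the coding length had a Spearman rho of -0.736 and a Pearson r of -0.721, given as a description because all members come from the same libraries. Other genes ran the same way but less steeply, with a median SD of 0.35 under 600 bases (1719 genes) and 0.275 from 600 bases. Below 600 bases the members' median was 0.535 over 58 genes, so they varied more than other genes of short coding sequence. It was close to the 0.544 of the 895 other genes whose longest transcript is under 1000 bases. Coding sequence and longest transcript are different measures of length. The sets were not matched for level either, so neither comparison separates length from level.

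The extremes show the range. Rpl38, a small 60S protein of 210 coding bases, had the largest SD at 0.818. It stood at 65.8, 159, 89.6 and 321 CPM in BPH/2J Cmpd17b mice and at 67.9, 93.5, 325, 146 and 237 CPM in BPH/2J vehicle mice. It stood at 56.8, 81.2, 90.5, 85.8 and 189 CPM in BPN/3J Cmpd17b mice and at 94, 95.7, 85 and 223 CPM in BPN/3J vehicle mice. The 4 groups overlap, and the same mice that are high in the summed share are high here. Rpl36 followed with 0.766 and Rplp1, an acidic protein of the stalk that recruits elongation factors, with 0.753. At the other end were Rpl7l1, a paralogue of Rpl7 known for a part in ribosome assembly, with 0.103, Rplp0, the protein that anchors the stalk, with 0.114, and Rpl4, whose loop lines the peptide exit tunnel, with 0.199. The coding sequences of these 3 are 738, 951 and 1257 bases long.

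**Figure D3:**
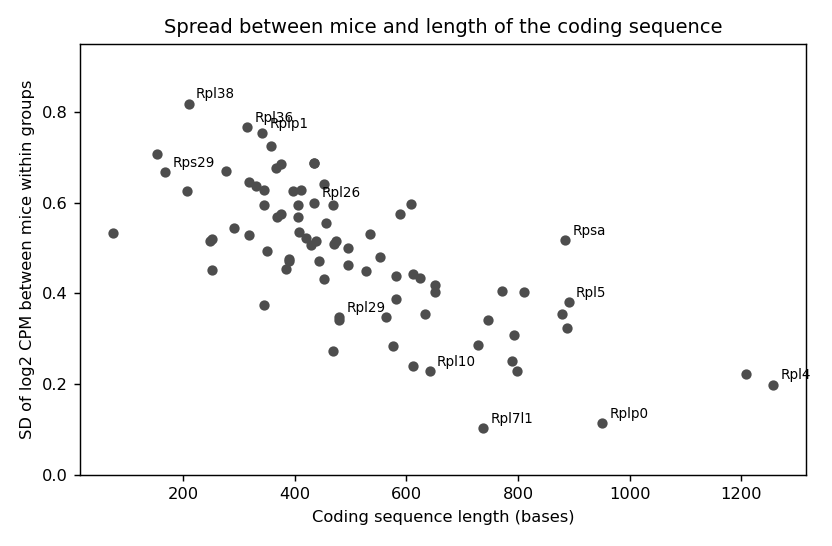
SD of log2 CPM between mice within groups (y axis) against coding sequence length in bases (x axis) for 81 ribosomal protein genes, 1 point per gene. The points fall from 0.818 (Rpl38, 210 bases) to 0.199 (Rpl4, 1257 bases), and Rplp0 and Rpl7l1 lie lowest.

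By role, the 40S and the 60S members had the same median SD, 0.506. The 2 proteins of the 5S particle, Rpl5 and Rpl11, which in mammals also bind Mdm2, had SDs of 0.381 and 0.532. The highest mean CPM belonged to Rpsa, a 40S protein that is also named as laminin receptor, and to Rpl13a, Rpl4, Rpl10 and Rpl5. Rpl10, which joins the 60S subunit last, averaged 485 ± 84 CPM (SD, n = 4) in BPH/2J Cmpd17b, 504 ± 75.5 (n = 5) in BPH/2J vehicle, 468 ± 81.2 (n = 5) in BPN/3J Cmpd17b and 510 ± 55.8 (n = 4) in BPN/3J vehicle mice. CPM is not scaled by length. Per kb of coding sequence, which leaves out the untranslated ends, the mean level was 644 CPM per kb for Rpsa, 900 for Rpl13a, 405 for Rpl4, 765 for Rpl10 and 537 for Rpl5. The highest on that scale was Rpl41, the shortest member, at 4860 CPM per kb, a gene chosen after its values were seen.

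The starts of these genes were read from RefSeq promoters (GRCm38.p6), which held 65 of the 87 members. A pyrimidine run was searched as CTTTCC on the gene strand, from 10 bases before to 20 bases after the annotated start. It was present in 10 of 65 members (15.4%), against 1.52% of 27025 genes in the table, and the longer CTCTTTCC was present in 3 members (4.62%) against 0.111%. CCGGAAG, the core bound by ETS factors, lay on either strand of the whole window of 250 bases before to 50 after the start in 26 of 65 members and 9.93% of all genes. GGGCGG, the core bound by Sp1, lay there in 61.5% and 38.2%, and AAGATGGC, the core bound by YY1, in 9.23% and 3.19%. TATAAA lay there in 12.3% of members and 15.7% of all genes. Annotated starts can lie some bases from the real ones, so a missing match says only that the letters are not in the window. The windows below run from 60 bases before to 20 bases after the start, with the CTTTCC in capitals. They are shown because they hold the run and few exon bases of their gene, 23 for Rps27 and 22 for Rpl39l. Rps27 is expressed in every mouse, and Rpl39l had almost no counts. In Rps27 the run starts at base 2 from the annotated start. In Rpl39l it starts at base -6 and lies wholly before the annotated start.
Rps27 promoter, chr3:90213629-90213708, minus strand: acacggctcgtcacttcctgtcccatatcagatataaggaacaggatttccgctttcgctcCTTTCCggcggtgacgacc
Rpl39l promoter, chr16:10170168-10170247, plus strand: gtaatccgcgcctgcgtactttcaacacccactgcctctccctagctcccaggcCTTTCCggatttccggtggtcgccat

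The strain comparison asks which ribosomal protein genes differ between hypertensive BPH/2J and normotensive BPN/3J kidneys. On vehicle, 5 of 85 members passed edgeR's quasi-likelihood test at an adjusted p under 0.05 over all genes, 4 higher and 1 lower in BPH/2J, which is 5.88% of the members against a background of 10.8% of all genes tested (5.82% higher, 4.94% lower). On Cmpd17b, 6 passed, 5 higher and 1 lower, or 7.06% against a background of 10.4% (5.71% higher, 4.65% lower). The share called was thus below the background in both arms. Rpl26, Rpl30, Rpl35a and Rps4l were higher in both arms and Rpl29 was lower in both, while Rplp0 passed on Cmpd17b. Averaged over the arms, Rplp1, Rps3a1 and Rpl7l1 were added, which gave 9 of 85 (10.6%) against 23.6%. The ranges of the strains did not overlap for 5 members on vehicle (13.6% of all genes) and 4 on Cmpd17b (12.8% of all genes). The 5 on vehicle are not the 5 called there: Rplp0 is among them without a call, and Rpl35a was called with overlap. Without BPH/2J vehicle replicate 5 the counts of calls were 4 on vehicle, 4 on Cmpd17b and 9 averaged. Without BPH/2J Cmpd17b replicate 5 the count on Cmpd17b was 3, and with the left-out library the count on vehicle was 3.

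**Figure D4:**
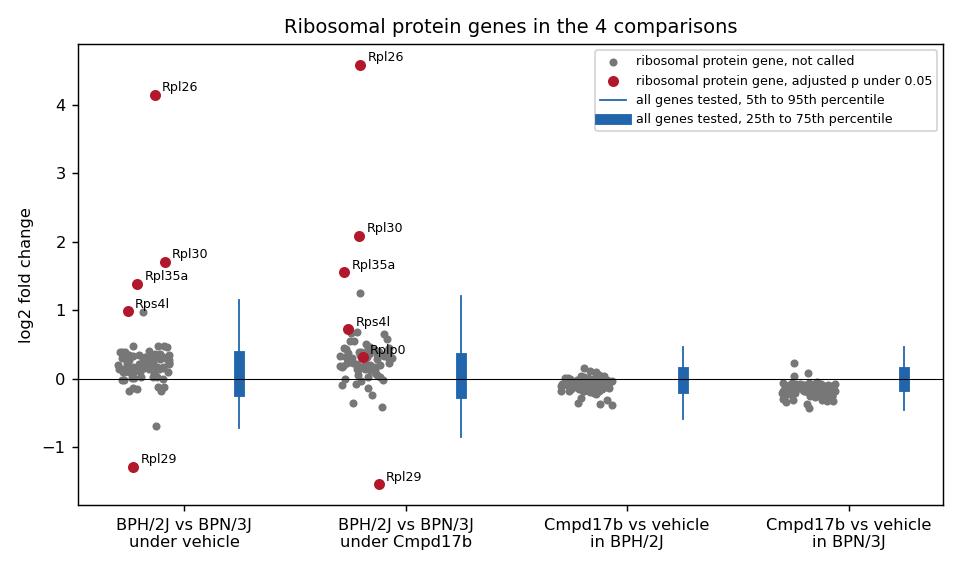
log2 fold change (y axis) of the 85 tested ribosomal protein genes in 4 comparisons (x axis), with called genes in red and named, beside the 5th to 95th (line) and 25th to 75th (bar) percentiles of all 16421 genes. Calls are seen in the strain comparisons only, with Rpl26 at the top and Rpl29 at the bottom.

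Of the called members, Rpl26, Rpl29, Rpl30, Rpl35a and Rplp1 have processed pseudogenes, intronless copies of a message pasted elsewhere in the genome, that match at 90% identity or more and are themselves rows of the table. For Rpl26, Rpl30 and Rpl35a, 1 such copy took 12.5% or more of the counts of the pair in every BPN/3J library, and these pairs are described first. In sequences of GENCODE M21 (GRCm38), Rpl26 lies at chr11:68901583-68906989 on the plus strand and its copy Gm15772 at chr5:3236431-3236868, and over 435 coding bases they differ at 2. Rpl30 lies at chr15:34440505-34443640 on the minus strand and its copy Gm12191 at chr11:49678710-49679057, with 1 difference in 345 bases. Rpl35a lies at chr16:33056453-33060189 on the plus strand and its copy Gm10029 at chr13:6662565-6662894, with 7 differences in 330 bases. The 90-base windows below start at coding base 132 of Rpl26 and base 219 of Rpl35a. Capitals mark the bases at which gene and copy differ, and the windows are shown because these are the only bases in them that tell gene from copy.
Rpl26: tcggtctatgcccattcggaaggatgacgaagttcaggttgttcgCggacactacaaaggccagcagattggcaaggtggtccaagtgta
Gm15772: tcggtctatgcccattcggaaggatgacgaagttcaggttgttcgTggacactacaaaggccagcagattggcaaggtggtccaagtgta
Rpl35a: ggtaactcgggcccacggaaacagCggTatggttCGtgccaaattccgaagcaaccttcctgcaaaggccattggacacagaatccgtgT
Gm10029: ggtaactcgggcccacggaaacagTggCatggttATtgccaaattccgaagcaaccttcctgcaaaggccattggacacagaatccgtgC

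Rpl26 encodes a 60S protein near the exit of the peptide tunnel. It stood at 201, 424, 272 and 708 CPM in BPH/2J Cmpd17b mice, against 12.2, 13.8, 14.3, 15.8 and 27.9 CPM in BPN/3J Cmpd17b mice. On vehicle it stood at 211, 251, 661, 394 and 481 CPM in BPH/2J, against 20.7, 17.8, 19 and 32.8 CPM in BPN/3J. The strains do not overlap in either arm. The log2 fold change was 4.58 ± 0.40 (SE) on Cmpd17b (edgeR adjusted p = 3.04e-07) and 4.14 ± 0.43 on vehicle (edgeR adjusted p = 2.81e-06), and 4.07 on vehicle without BPH/2J vehicle replicate 5.

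The copy Gm15772 showed the opposite. It stood at 1.64, 2.31, 1.99 and 4.67 CPM in BPH/2J Cmpd17b mice, against 178, 237, 278, 228 and 504 CPM in BPN/3J Cmpd17b mice. On vehicle it stood at 1.87, 6.15, 2.24, 2.47 and 127 CPM in BPH/2J, against 265, 253, 255 and 529 CPM in BPN/3J. The copy took 92.7% to 95.1% of the counts of the pair in the 9 BPN/3J libraries, 0.338% to 2.39% in 8 BPH/2J libraries and 20.9% in BPH/2J vehicle replicate 5. When the rows of Rpl26 and its annotated copies were summed, the log2 fold change was 0.42 ± 0.40 on Cmpd17b (edgeR adjusted p = 0.549) and 0.30 ± 0.40 on vehicle (edgeR adjusted p = 0.682). The call was thus lost in both arms, and without BPH/2J vehicle replicate 5 the summed change on vehicle was 0.14 (edgeR adjusted p = 0.891).

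Rpl30, a 60S protein that in yeast controls the splicing of its own message, gave the same picture. It stood at 130, 334, 216 and 467 CPM in BPH/2J Cmpd17b mice, against 44.4, 59.9, 61.8, 57.9 and 114 CPM in BPN/3J Cmpd17b mice. On vehicle it stood at 146, 165, 383, 286 and 349 CPM in BPH/2J, against 63.4, 62.3, 60.4 and 139 CPM in BPN/3J. Ranges did not overlap in either arm, and the log2 fold changes were 2.09 ± 0.38 on Cmpd17b (edgeR adjusted p = 0.00110) and 1.71 ± 0.39 on vehicle (edgeR adjusted p = 0.00781), and 1.59 on vehicle without BPH/2J vehicle replicate 5. Its copy Gm12191 took 62.0% to 66.7% of the pair in BPN/3J libraries, 0.717% to 2.18% in 8 BPH/2J libraries and 14.4% in BPH/2J vehicle replicate 5. Summed with its copies, Rpl30 had a log2 fold change of 0.61 ± 0.37 on Cmpd17b (edgeR adjusted p = 0.329) and 0.33 ± 0.37 on vehicle (edgeR adjusted p = 0.624). The summed value on vehicle was 0.15 without BPH/2J vehicle replicate 5 (edgeR adjusted p = 0.863).

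Rpl35a, a 60S protein whose loss in human causes Diamond-Blackfan anaemia, kept most of its difference when summed with its copies in the table. It stood at 164, 361, 230 and 558 CPM in BPH/2J Cmpd17b mice, against 74.4, 94.2, 104, 99.3 and 187 CPM in BPN/3J Cmpd17b mice. On vehicle it stood at 174, 216, 596, 365 and 418 CPM in BPH/2J, against 109, 107, 104 and 221 CPM in BPN/3J. The ranges overlap in both arms through the highest BPN/3J mouse. The log2 fold change was 1.55 ± 0.39 on Cmpd17b (edgeR adjusted p = 0.0122) and 1.39 ± 0.40 on vehicle (edgeR adjusted p = 0.0300). Gm10029 took 12.5% to 16.2% of the pair in BPN/3J libraries, 0.356% to 0.78% in 8 BPH/2J libraries and 1.98% in BPH/2J vehicle replicate 5. With its copies in the table summed, the change was 1.31 ± 0.38 on Cmpd17b (edgeR adjusted p = 0.0322) and 1.17 ± 0.39 on vehicle (edgeR adjusted p = 0.0636). The summed change was 1.10 on vehicle without BPH/2J vehicle replicate 5. A further 17 copies of Rpl35a, up to 99.7% identical, have no row in the table and could not be summed. Without BPH/2J vehicle replicate 5 the change of Rpl35a alone on vehicle was 1.32 (edgeR adjusted p = 0.0562), and without BPH/2J vehicle replicate 3 it was 1.12, 2 of the 6 single omissions of 18 that ended the call. On Cmpd17b the call was lost without BPH/2J Cmpd17b replicate 5 (edgeR adjusted p = 0.0656).

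**Figure D5:**
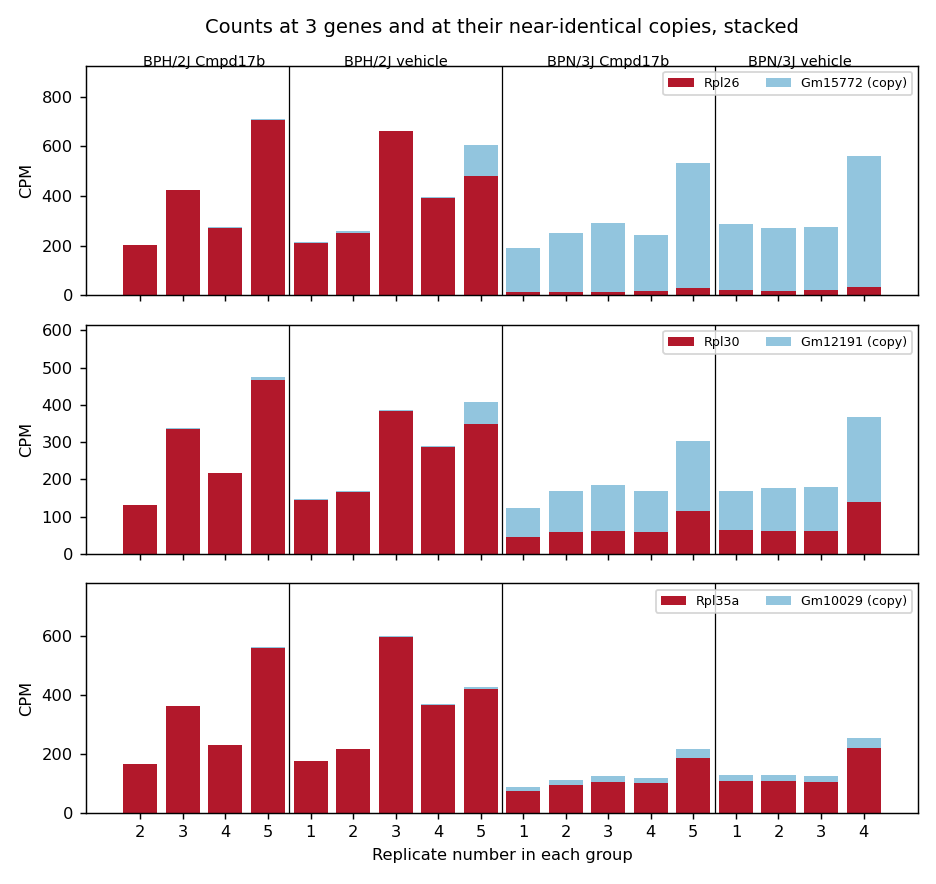
CPM (y axis) of Rpl26, Rpl30 and Rpl35a (red) with their copies Gm15772, Gm12191 and Gm10029 stacked on top (blue) in 18 mice (x axis, by group and replicate). In BPN/3J the copy takes 92.7% to 95.1%, 62.0% to 66.7% and 12.5% to 16.2% of the pair, and in BPH/2J almost nothing, except in BPH/2J vehicle replicate 5.

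Whether the strains carry different sequences at these genes or copies was not tested. The table gives counts per gene and no reads. Over all members, sequences that matched 90% or more over at least 60% of the member's transcript were found for 743 copies, of which 73, belonging to 32 members, are rows of the table. How reads that match both a member and its copy were counted is not given in the sources used here, so counts at members with a close copy are uncertain.

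Rpl29, a small basic 60S protein, was the member lower in BPH/2J in both arms. It stood at 70.2, 102, 97.8 and 78.2 CPM in BPH/2J Cmpd17b mice, against 187, 240, 261, 219 and 363 CPM in BPN/3J Cmpd17b mice. On vehicle it stood at 76.4, 80.1, 116, 105 and 162 CPM in BPH/2J, against 232, 240, 242 and 341 CPM in BPN/3J. The strains did not overlap in either arm, and the highest BPH/2J mouse was vehicle replicate 5. The log2 fold change was -1.54 ± 0.23 on Cmpd17b (edgeR adjusted p = 0.000127) and -1.29 ± 0.22 on vehicle (edgeR adjusted p = 0.000610), and -1.48 on vehicle without that replicate. Summing with its 7 copies in the table left it at -1.51 on Cmpd17b and -1.26 on vehicle, since those copies together averaged 1.69 CPM in BPN/3J vehicle mice. A further set of Rpl29 copies, up to 99.4% identical, has no row in the table.

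Rps4l, a paralogue of the 40S protein gene Rps4x that GENCODE M21 lists without a coding sequence, was low and higher in BPH/2J. It stood at 9.1, 10.7, 8.49 and 15.6 CPM in BPH/2J Cmpd17b mice, against 6.69, 6.22, 6.42, 6.83 and 6.96 CPM in BPN/3J Cmpd17b mice. On vehicle it stood at 7.19, 8.12, 10.6, 17 and 12.9 CPM in BPH/2J, against 6.76, 4.1, 6.13 and 5.57 CPM in BPN/3J. The strains did not overlap, although the nearest mice differed by less than 1 CPM on vehicle. The log2 fold change was 0.72 ± 0.23 on Cmpd17b (edgeR adjusted p = 0.0491) and 0.98 ± 0.23 on vehicle (edgeR adjusted p = 0.00904), and 0.93 on vehicle without BPH/2J vehicle replicate 5. The call on Cmpd17b was lost without BPH/2J vehicle replicate 5 (edgeR adjusted p = 0.0543), and 12 of 18 such omissions ended it. Without BPH/2J Cmpd17b replicate 5, the highest of its group at 15.6 CPM, the change on Cmpd17b was 0.51 (edgeR adjusted p = 0.198).

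The stalk and the remaining calls were smaller or less steady. Rplp0 stood at 407, 494, 474 and 454 CPM in BPH/2J Cmpd17b mice, against 309, 384, 388, 347 and 409 CPM in BPN/3J Cmpd17b mice. Its log2 fold change was 0.31 ± 0.10 on Cmpd17b (edgeR adjusted p = 0.0459), a call that 13 of 18 single omissions ended, and 0.21 ± 0.10 on vehicle (edgeR adjusted p = 0.190). Without BPH/2J vehicle replicate 5 it was 0.31 on Cmpd17b (edgeR adjusted p = 0.0546) and 0.22 on vehicle. Averaged over arms, Rplp0 was called (edgeR adjusted p = 0.00949), also without BPH/2J Cmpd17b replicate 5 (edgeR adjusted p = 0.0101). That averaged call was lost with library totals alone (edgeR adjusted p = 0.143) and with all 19 libraries (edgeR adjusted p = 0.0522). Rplp1 stood at 235, 488, 279 and 1210 CPM in BPH/2J Cmpd17b mice, against 128, 199, 222, 202 and 411 CPM in BPN/3J Cmpd17b mice, so that in this arm replicate 5 alone exceeds the others by far. On vehicle it stood at 234, 315, 856, 432 and 732 CPM in BPH/2J, with replicates 3 and 5 highest, against 214, 216, 215 and 398 CPM in BPN/3J. Averaged over arms, Rplp1 rose by 1.11 ± 0.33 on the log2 scale in BPH/2J (edgeR adjusted p = 0.0193), and by 0.75 (edgeR adjusted p = 0.0628) without BPH/2J Cmpd17b replicate 5. The third stalk gene, Rplp2, averaged 189 ± 104 CPM (SD, n = 4) in BPH/2J Cmpd17b and 149 ± 52.8 CPM (SD, n = 5) in BPN/3J Cmpd17b mice and was not called. Rps3a1, a 40S protein, rose by 0.42 ± 0.14 in BPH/2J averaged over arms (edgeR adjusted p = 0.0305), and Rpl7l1 fell by 0.18 ± 0.06 (edgeR adjusted p = 0.0413). Single omissions ended the first of these calls in 8 of 18 cases and the second in 12 of 18. Without BPH/2J vehicle replicate 5 the averaged values were 1.03 for Rplp1, 0.41 for Rps3a1 and -0.19 for Rpl7l1, and all 3 kept their call.

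Beyond the calls, most members had a log2 fold change above 0 between the strains. On vehicle 74 of 85 had a log2 fold change above 0, with a median of 0.21, against 0.04 over all genes, where 54.6% lay above 0. On Cmpd17b 76 of 85 lay above 0, with a median of 0.31 against 0.01. A member's 95% interval reached a median of 0.65 to either side in both, so a difference of this size was not detectable for most single members. Because the members move together between mice, the median turns on a few libraries. On vehicle it was 0.03 without BPH/2J vehicle replicate 3, 0.12 without BPH/2J vehicle replicate 5 and 0.43 without BPN/3J vehicle replicate 4. On Cmpd17b it was -0.01 without BPH/2J Cmpd17b replicate 5 and 0.49 without BPN/3J Cmpd17b replicate 5. The 895 other genes with transcripts under 1000 bases had medians of 0.24 on Cmpd17b and 0.21 on vehicle, and the nuclear encoded respiratory chain subunits 0.33 on Cmpd17b and 0.25 on vehicle. The medians of the 15 mitochondrially encoded genes were 0.67 on Cmpd17b and 0.40 on vehicle. The part of either in the values of the ribosomal protein genes was not tested.

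The counts of subunit and disease groups are read against the background of 10.4% on Cmpd17b and 10.8% on vehicle. Of the 40S members, 1 of 33 (3.03%) was called in each arm, which was Rps4l. Of the 60S members tested, 5 of 52 (9.62%) were called on Cmpd17b and 4 of 52 (7.69%) on vehicle. All 15 genes known from Diamond-Blackfan anaemia in human had a log2 fold change above 0 in both arms, with a median of 0.34 on Cmpd17b and 0.34 on vehicle, and 2 of 15 (13.3%), Rpl26 and Rpl35a, were called in each, a share near the background. With copies summed, the call of Rpl26 was lost in both arms and that of Rpl35a on vehicle. Neither gene of the 5S particle and none of the 3 genes listed for the wall of the exit tunnel, Rpl4, Rpl17 and Rpl39, was called in either arm. Rpl26 is not on that list.

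The comparison of Cmpd17b with vehicle asks whether the agonist moved these genes. It called 0 of 85 members in BPH/2J and 0 of 85 in BPN/3J, where the background was 0.164% and 0% of all genes tested. Averaged over strains it called 0 of 85, against 0.067%. No member had an unadjusted p under 0.05 in either strain, DESeq2 and limma-voom called 0 as well, and all 95% intervals of the members included 0. The median log2 fold change was -0.08 in BPH/2J (all genes -0.01) with a range of -0.38 to 0.16, and -0.16 in BPN/3J (all genes 0.00) with a range of -0.43 to 0.23. In BPH/2J 69 of 85 members lay below 0 and in BPN/3J 82 of 85. These directions turn on single mice: in BPH/2J the median was -0.36 without Cmpd17b replicate 5, 0.09 without Cmpd17b replicate 2 and 0.00 without vehicle replicate 5. In BPN/3J it was -0.36 without Cmpd17b replicate 5 and 0.05 without vehicle replicate 4. A member's 95% interval reached a median of 0.65 to either side in BPH/2J and in BPN/3J, so changes below that size were not detectable for most members. The interval is not adjusted over all genes, and a call needs a larger change. The 0 calls therefore do not exclude changes well above 0.65. The widest bounds of the members' intervals were -1.22 and 1.06 in BPH/2J, and -1.34 and 0.79 in BPN/3J. The part of the higher heart muscle markers of the BPH/2J Cmpd17b libraries in these values was not tested.

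The members with the smallest p in these comparisons show the same. In BPH/2J, Rpl29 differed by -0.31 ± 0.22 (edgeR adjusted p = 1), and its values, given above, overlap between the arms. The difference was -0.12 without BPH/2J vehicle replicate 5. Rps29, a 40S zinc finger protein, averaged 250 ± 126 CPM (SD, n = 4) in Cmpd17b and 322 ± 157 CPM (SD, n = 5) in vehicle BPH/2J mice. In BPN/3J it averaged 197 ± 92.1 CPM (SD, n = 5) on Cmpd17b and 246 ± 109 CPM (SD, n = 4) on vehicle. Averaged over strains its log2 fold change was -0.34 ± 0.28 (edgeR adjusted p = 1), and -0.29 without BPH/2J vehicle replicate 5. Rpl7a, a 60S protein gene whose introns carry snoRNAs, averaged 397 ± 72.2 CPM (SD, n = 5) on Cmpd17b and 439 ± 75.7 CPM (SD, n = 4) on vehicle in BPN/3J. The test of whether the Cmpd17b effect differs between strains called 0 of 85 members, against a background of 0.0304%, with a median of 0.08. That median was -0.20 without BPH/2J Cmpd17b replicate 5 and 0.28 without BPN/3J Cmpd17b replicate 5.

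Of the 6 tested genes listed as paralogues, 1, Rps4l, was called between strains in each arm. Rpl3l, which replaces Rpl3 in heart and skeletal muscle, averaged 1.39 ± 0.844 CPM (SD, n = 4) in BPH/2J Cmpd17b and 1.4 ± 0.509 CPM (SD, n = 5) in BPH/2J vehicle mice. In BPN/3J it averaged 1.8 ± 0.92 CPM (SD, n = 5) on Cmpd17b and 2.25 ± 0.977 CPM (SD, n = 4) on vehicle. It was called in no comparison of the 18 libraries. Rpl22l1, a paralogue of Rpl22, averaged 60.1 ± 27.9 CPM (SD, n = 4) in BPH/2J Cmpd17b and 63 ± 27.7 CPM (SD, n = 5) in BPH/2J vehicle mice. Rps27l, known in mammals as a p53 target, averaged 163 ± 52.2 CPM and 184 ± 74.2 CPM (SD) in the same groups, and Rpl36al 161 ± 71.1 CPM and 170 ± 70.9 CPM (SD). Neither of the last 2, nor Rpl22l1, was called in any comparison. Rpl32l and Rpl6l were the least abundant tested members beside Rpl3l, at 0.189 to 0.865 CPM and 0.467 to 1.9 CPM.

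Genes that work with the ribosome were taken from lists, whose counts between strains are read against the background of 10.4% on Cmpd17b and 10.8% on vehicle. Of 30 ribosome biogenesis and RNA polymerase I genes, 1 was called between strains on Cmpd17b and 0 on vehicle. The 1 was Taf1b, a subunit of the polymerase I selectivity factor, with a log2 fold change of 0.41 ± 0.13 (edgeR adjusted p = 0.0494). Of 17 translation factors and other genes with TOP messages, 1 was called in each arm, the intermediate filament gene Vim, at 0.87 ± 0.27 on Cmpd17b (edgeR adjusted p = 0.0497) and 1.15 ± 0.28 on vehicle (edgeR adjusted p = 0.0114). The snoRNA host Gas5, itself a TOP transcript, fell by 1.11 ± 0.34 on the log2 scale in BPH/2J on vehicle (edgeR adjusted p = 0.0432), and it was the 1 of 8 hosts called there. Of 78 mitochondrial ribosomal protein genes, Mrpl15 was called in both arms, at 0.71 ± 0.13 on Cmpd17b (edgeR adjusted p = 0.00133) and 0.66 ± 0.13 on vehicle (edgeR adjusted p = 0.00290), and Mrps6 on Cmpd17b at 0.70 ± 0.22 (edgeR adjusted p = 0.0477). Without BPH/2J vehicle replicate 5 the values on vehicle were 0.93 for Vim, -1.38 for Gas5 and 0.65 for Mrpl15, all still called, and Mrps6 lost its call on Cmpd17b (edgeR adjusted p = 0.0523). None of the 30 biogenesis genes, 17 TOP genes, 8 hosts or 78 mitochondrial ribosomal protein genes was called for Cmpd17b against vehicle in either strain.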

How the data were processed

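The authors deposited estimated counts for 40413 genes in 19 libraries, made from reads that they trimmed and aligned, per the submitters' processing notes. They are taken as estimates because 4.63% to 10.1% of the values per library were not whole. Those notes name Trim Galore 0.6.7, STAR 2.7.9a and the mouse build mm39. What counted the reads, with which annotation, is not given in the sources used here, nor whether reads matching several places were divided. Libraries are separate mice, all of batch 2. Values were rounded to whole counts and tested with edgeR 4.0.16 (R 4.3.3): TMM, filterByExpr (minimum count 10, minimum total 15), robust quasi-likelihood F-test, 1 fit of 18 libraries in 4 groups, Benjamini-Hochberg adjustment over 16421 genes, called under 0.05. The coefficients ± SE are log2 fold changes, and CPM are on the TMM scale, with a prior count of 0.5 for log2 CPM.

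Copies were searched with blastn 2.17.0 among GENCODE M21 transcripts (GRCm38), with at least 90% identity, 60% of the member's transcript and 150 bases. This build is not that of the alignment, so coordinates were used for the sequences only. Coding length is that of 1 reference transcript per gene. Promoters are RefSeq's (GRCm38.p6).

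Genes were named where called, or among the 3 smallest p where fewer than 6 were called, and by highest or lowest level, largest or smallest spread, or paralogue status. The members, lists and rules were chosen with earlier results of these data known. The sums with copies, the omission of BPH/2J vehicle replicate 5 together with them, and the length classes were added after seeing these data, as was the search for libraries that stand apart. Alternatives were DESeq2 1.42.0, limma-voom (limma 3.58.1), other scalings and filters, a fit that is not robust, the compared groups only, all 19 libraries and leaving out each library. The fit was tested on simulated data. Mitochondrially encoded genes carry names such as COX1 in the table. Members with no promoter in the table were not analysed here for motifs.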

Additional observations from a re-analysis of the deposited data

Results flagged for a closer look

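In groups of 4 or 5 mice, 123 sets of values were searched for a mouse far from the others, and 33 (26.8%) had one. For normally distributed values chance alone gives about 1 in 20, and CPM were searched without a log scale, so that rate is only a rough guide. The sets are not independent, because the ribosomal protein genes of a mouse move together. BPN/3J vehicle replicate 4 accounts for 21 of them, all high. Its summed share was 2.837%, against 1.967% to 2.031% in the other mice of its group. The members concerned, in CPM, were Rpl29 at 341, Rpl30 at 139, Rpl35a at 221, Rpl7a at 552, Rpl4 at 673, Rplp1 at 398 and Rps29 at 408. Further members were Rpsa at 687, Rpl13a at 848, Rpl10 at 592, Rpl5 at 655, Rpl22l1 at 103, Rps27l at 253, Rpl36 at 377 and Rpl38 at 223 CPM. Outside the naming rule, Fau stood at 406 and Rack1 at 470 CPM, and the copies Gm15772, Gm12191 and Gm10029 at 529, 227 and 31.5 CPM.

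BPN/3J Cmpd17b replicate 5 was high in 6 sets: Rpl26 at 27.9, Rpl30 at 114, Rpl35a at 187, Rps29 at 356, Rpl36 at 323 and Rpl38 at 189 CPM. BPH/2J vehicle replicate 5 was high in 4: Gm15772 at 127, Gm12191 at 58.7, Gm10029 at 8.43 and Rpl39l at 0.605 CPM, the last against 0 in the other mice of its group. Gm15772, Gm12191 and Gm10029 are among the 26 genes by which this replicate was set apart above, so their flags repeat that result. Rpl3l stood at 2.65 CPM in BPH/2J Cmpd17b replicate 5, against 0.937 to 1.01 CPM in the others. Rpl39l stood at 0.0277 CPM in BPN/3J Cmpd17b replicate 2, against 0 in the other mice of its group, where any count is flagged. In the left-out library, BPH/2J Cmpd17b replicate 1, Rpl3l reached 235 CPM, against 0.792 to 3.7 CPM in the 18 libraries used.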

How the results depend on the processing

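Across the alternatives the Cmpd17b comparisons and the interaction called 0 members in each fit run. The strain count on vehicle, 5, became 3 with all 19 libraries, 2 with rows summed with copies and 2 with sums and without BPH/2J vehicle replicate 5, and 4 to 5 with single libraries left out. The count on Cmpd17b, 6, became 4 with sums, 2 with sums and without that replicate, 4 with size factors in edgeR and 4 with no filter, and 3 to 7 with single libraries left out; averaged over arms it was 6 to 9. With the 10 most abundant other genes left out, the summed share was 3.077% and 3.262% in BPH/2J Cmpd17b and vehicle, and 2.514% and 2.727% in BPN/3J Cmpd17b and vehicle; over nuclear genes it was 2.834%, 3.032%, 2.376% and 2.576% in the same order, so the distance between the strains was wider than over all counts. Rpl3l turned round between strains on Cmpd17b with all 19 libraries, to 5.11 (edgeR adjusted p = 0.0318), since the added library holds 235 CPM of it. With single libraries left out, the members' median log2 fold change was 0.03 to 0.43 for strain on vehicle, -0.01 to 0.49 on Cmpd17b and 0.10 to 0.36 averaged. For Cmpd17b it was -0.36 to 0.09 in BPH/2J, -0.36 to 0.05 in BPN/3J and -0.27 to -0.02 averaged, and for the interaction -0.20 to 0.28. The share was 1.955% to 2.456% and 2.292% to 2.646% in BPH/2J Cmpd17b and vehicle, and 1.85% to 2.174% and 1.989% to 2.279% in BPN/3J Cmpd17b and vehicle, and the median SD 0.465 to 0.525. Scaling by library totals alone moved the median of all genes to -0.13 for strain on Cmpd17b, where the members' was 0.12. No paired analysis was possible because the labels give each mouse its own animal number and the replicate numbers follow accession order.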
